A study of Mus musculus with 14 samples.

Results

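Genes of DNA replication and S phase were followed in sorted mouse peritoneal macrophages. The 49 genes were chosen by name for their known roles, but with earlier results of these data known, out of 20660 gene symbols represented on the array. All 49 had at least 1 probe, 56 probes in all, and all 49 passed the filter that kept 20342 genes for testing. They fall into 7 roles: the replicative helicase (12 genes), origin licensing (5), the triggering kinases and E2F factors (7), polymerases with clamp and clamp loaders (11), maturation and fork proteins (5), nucleotide supply (5), and the copying of chromatin and its methylation (4).

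The samples were C57BL/6 macrophages positive for both CD11b and the macrophage surface protein that Adgre1 encodes, each hybridised to 1 one-colour array. The 4 groups differed in what was injected into the peritoneum. The Thio+IL-4c group (4 arrays) was given 2 ml of 4% thioglycollate, an irritant broth that draws monocytes into the cavity, together with IL-4c. IL-4c is 5 µg of interleukin-4 held in a complex with 25 µg of the antibody 11B11, which prolongs its action. The Thio group (3 arrays) was given the broth alone, the IL-4c group (4 arrays) the complex alone, and the PBS group (3 arrays) the vehicle. Cells of the last pair of groups are called resident here, and cells of the groups given broth are called elicited. The labels do not say whether each sample was a separate animal, and p-values therefore reflect the spread between samples, which may be technical. The interval between injection and harvest is not stated in them.

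Replication starts in G1, when the origin recognition complex, Cdc6 and Cdt1 load the Mcm2 to Mcm7 ring onto DNA, and it fires when cyclin E with Cdk2 and Dbf4 with Cdc7 let Cdc45 and the GINS complex join the ring. Polymerases then copy both strands on a sliding clamp while Okazaki fragments are joined and histones and DNA methylation are restored. Most of these genes are transcribed by E2F factors as cells pass from G1 into S phase, and tissue macrophages are known to divide locally when they are exposed to interleukin-4.

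Levels are log2 of the processed signal minus that of the 75th percentile of the same array, so 1 unit is a doubling, and a level can be compared between arrays but not between genes. The 75th percentile itself was 2036.4 to 2536.6 on Thio+IL-4c arrays, 2285.9 to 3571.4 on Thio arrays, 3050.8 to 3865.6 on IL-4c arrays and 1271.0 to 1810.5 on PBS arrays. The number of arrays limits the precision. Array Thio 1 stood apart from its group. Across all genes tested its levels correlated at r of 0.848 with Thio 2 and 0.865 with Thio 3 but at 0.917 to 0.931 with the 3 PBS arrays, while Thio 2 and Thio 3 correlated at 0.984 with each other (genes are not independent replicates). It was hybridised on slide 1 with all PBS and IL-4c arrays, and the other Thio arrays were on slide 2 with all Thio+IL-4c arrays. Counts, and many of the gene results that rest on it, are given with and without it. Differences given without such a second value use all arrays. Of the markers that the sort calls for, Adgre1 and Itgam were well above background on all 14 arrays. Marker lists were summed on the linear scale, in units of the 75th percentile. The 4 macrophage markers measured summed to 105.1 to 115.9 in Thio+IL-4c, 124.1 to 163.7 in Thio, 232.4 to 241.2 in IL-4c and 350.7 to 406.7 in PBS arrays. The 4 markers of resident peritoneal macrophages summed to 0.911 to 1.165 in Thio+IL-4c, 0.859 to 1.55 in Thio, 72.6 to 78.3 in IL-4c and 315.9 to 381.1 in PBS arrays. The 5 B cell markers, of which 4 were called lower in IL-4c versus PBS and 2 in Thio+IL-4c versus Thio, summed to 1.93 to 2.215 in Thio+IL-4c, 4.78 to 5.32 in Thio, 1.102 to 1.501 in IL-4c and 6.14 to 14.3 in PBS arrays. The 3 neutrophil markers measured, of which 1 rose and 1 fell in IL-4c versus PBS and 2 rose in Thio+IL-4c versus Thio, summed to 5.81 to 14.2, 2.83 to 4.345, 0.414 to 3.76 and 0.872 to 0.933 in Thio+IL-4c, Thio, IL-4c and PBS arrays. The 4 dendritic cell markers, with 1 rise in the resident comparison and 1 rise and 1 fall in the elicited one, summed to 2.98 to 4.76, 0.534 to 2.41, 5.29 to 6.38 and 2.08 to 3.335 in the same order of groups. The 5 T and NK cell markers, with 3 falls in the resident comparison and 2 in the elicited one, summed to 4.67 to 7.01, 4.245 to 5.32, 3.31 to 3.90 and 5.62 to 6.74. The 4 mast cell markers, with 2 falls and 1 fall, summed to 1.41 to 1.87, 1.81 to 4.28, 3.045 to 3.40 and 5.79 to 7.03. The 4 eosinophil markers, with 1 rise in the resident and 1 fall in the elicited comparison, summed to 0.573 to 0.796, 0.728 to 1.24, 0.591 to 0.643 and 0.857 to 0.921. The 5 mesothelial and stromal markers, with 2 falls and 1 fall, and with 4 rises in Thio versus PBS, summed to 1.73 to 1.98, 1.47 to 2.77, 0.149 to 0.250 and 0.330 to 0.543. These last 4 lists are in the order Thio+IL-4c, Thio, IL-4c and PBS. The part of any of these lists in the results below was not tested.

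Promoter sequence was available for 38 of the 49 genes (RefSeq, GRCm38.p6, first listed start of each gene). The 250 bases before the start are printed for 5 genes on which results turn: Rrm2 (the largest rise), Cdc6 (the largest rise in elicited cells), Mcm5 (a ring subunit), Orc1 (a licensing gene whose calls hung on 1 array) and Gins3 (the helicase subunit that ran the other way). These 5 were picked after the matches were seen, and Orc1 took the place of Chaf1b, whose promoter held no match, so the sequences printed show matches more often than the set does. Capitals mark an E2F-type match (TTTCCCGC, TTTGGCGC, TTTGCCGC or TTTCGCGC on either strand) or a CCAAT box (CCAAT on either strand).
Rrm2 (chr12:24708004-24708253, plus strand): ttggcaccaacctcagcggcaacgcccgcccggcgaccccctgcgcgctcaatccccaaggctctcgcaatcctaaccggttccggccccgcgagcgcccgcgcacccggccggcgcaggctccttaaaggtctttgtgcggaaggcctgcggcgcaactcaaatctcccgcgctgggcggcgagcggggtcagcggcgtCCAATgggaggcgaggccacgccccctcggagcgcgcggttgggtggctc
Cdc6 (chr11:98907901-98908150, plus strand): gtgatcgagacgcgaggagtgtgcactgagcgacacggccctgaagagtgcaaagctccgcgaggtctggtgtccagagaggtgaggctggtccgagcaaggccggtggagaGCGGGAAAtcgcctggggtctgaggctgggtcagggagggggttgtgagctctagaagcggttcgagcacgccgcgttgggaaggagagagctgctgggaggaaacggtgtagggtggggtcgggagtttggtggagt
Mcm5 (chr8:75109259-75109508, plus strand): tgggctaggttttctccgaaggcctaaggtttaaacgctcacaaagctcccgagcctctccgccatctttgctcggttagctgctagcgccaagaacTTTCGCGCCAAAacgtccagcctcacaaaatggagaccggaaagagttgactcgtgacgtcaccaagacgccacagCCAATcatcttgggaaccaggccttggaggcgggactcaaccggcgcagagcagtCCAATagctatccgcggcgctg
Orc1 (chr4:108579204-108579453, plus strand): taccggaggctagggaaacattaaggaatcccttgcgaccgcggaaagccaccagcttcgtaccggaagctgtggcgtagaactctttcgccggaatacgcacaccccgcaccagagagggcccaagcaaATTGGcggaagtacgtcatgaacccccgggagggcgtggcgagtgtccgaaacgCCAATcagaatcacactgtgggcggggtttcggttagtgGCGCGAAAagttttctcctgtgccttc
Gins3 (chr8:95633309-95633558, plus strand): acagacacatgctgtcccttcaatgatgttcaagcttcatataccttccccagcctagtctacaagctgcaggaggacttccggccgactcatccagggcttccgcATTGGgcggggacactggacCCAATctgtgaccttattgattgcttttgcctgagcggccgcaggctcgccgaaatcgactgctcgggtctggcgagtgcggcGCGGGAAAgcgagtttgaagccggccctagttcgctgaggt
The motifs were chosen with values of these genes known, and 4 kinds were looked for in 2 windows. The whole 300-base entries, which run 50 bases past the start, were searched first. There an E2F-type match was found in 13 of 38 promoters (34.2%, against 2.32% of the 27025 promoters of all genes), a CCAAT box in 23 (60.5%, against 37.9%), the letters TTTGAA, part of an element of genes of late cycle, in 7 (18.4%, against 18.1%), and the GC box GGGCGG in 27 (71.1%, against 35.9%). The window was then narrowed to the 250 bases that could be printed. In it an E2F-type match was found in 9 (23.7%, against 1.91%), a CCAAT box in 23 (60.5%, against 34.5%), TTTGAA in 5 (13.2%, against 16.3%) and GGGCGG in 25 (65.8%, against 32.9%). The 9 were Mcm5, Mcm6, Mcm7, Gins3, Cdc6, Orc1, Pola1, Rfc3 and Cdk2, and in Mcm5 a pair of matches on opposite strands overlap. Rrm2 held a CCAAT box and no E2F-type letters, and Gins3 held both kinds. A match describes letters only.

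In resident cells given IL-4c nearly the whole replication set rose. Of 49 genes, 45 rose and 1 fell (Gins3) at an adjusted p under 0.05, and 3 were not called (Orc1, Cdc7 and Tyms), with all 3 fitted above PBS. Over all genes tested, 32.2% were called in this comparison, 16.8% higher and 15.4% lower. The median difference of the 49 was 1.94 on the log2 scale, 3.845-fold, where the median of all genes was -0.01. With the 1 gene that lay below background in PBS set at its bound, the median was 1.90. At least 2-fold higher were 41 of 49, against 6.91% of all genes. In 48 of 49 genes every IL-4c array lay above every PBS array, against 26.3% of all genes. Since each array holds RNA of a whole sorted sample, more cells that express a gene and more RNA per cell cannot be told apart.

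**Figure D1:**
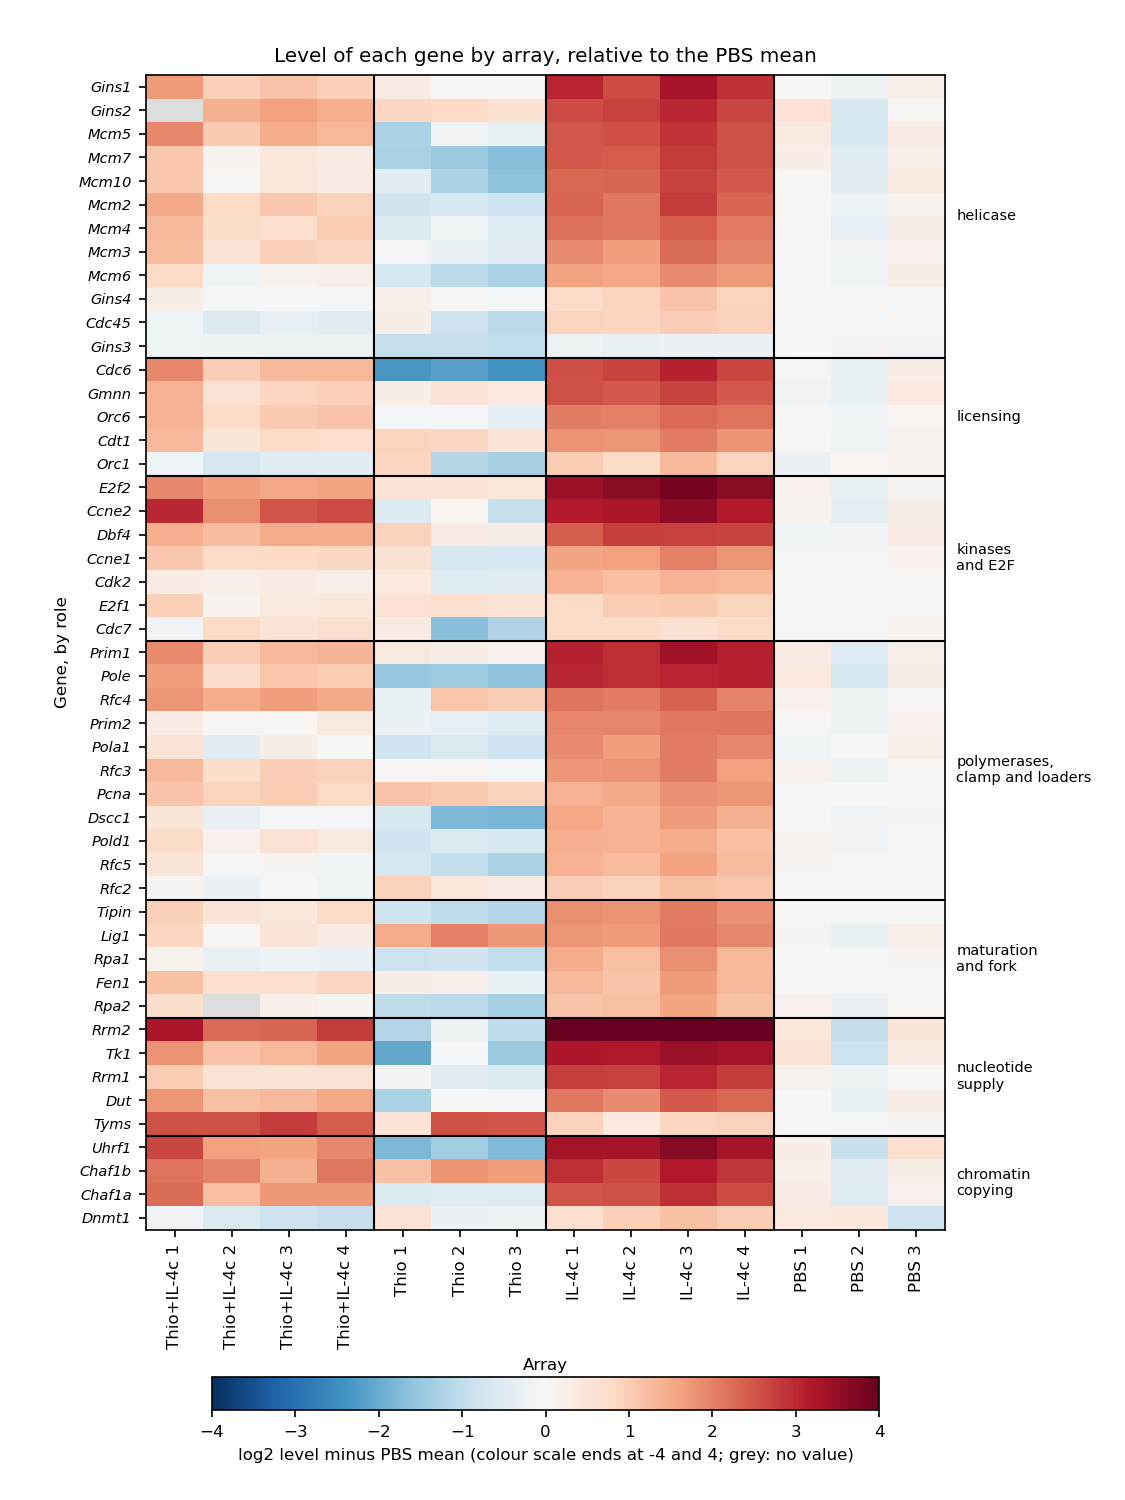
Level of each of the 49 genes (rows, grouped by role) in each of the 14 arrays (columns), as the log2 level minus the mean of the 3 PBS arrays; grey cells had no value. The 4 IL-4c columns are red in 48 rows and pale blue for Gins3, and the Thio+IL-4c columns are paler than the IL-4c columns in most rows.

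In elicited cells fewer of these genes rose. Thio+IL-4c against Thio had 37 of 49 genes higher, 2 lower (Lig1 and Rfc2) and 10 not called, where 16.3% of all genes were called higher and 23.0% lower. In 34 of 47 genes with a value on every array the groups lay apart with Thio+IL-4c above, against 21.8% of all genes. The median difference was 1.09 on the log2 scale, 2.135-fold, against 0.04 over all genes, and 1.04 with the dim gene at its bound. Without Thio 1 the counts were 39 higher and 2 lower, with a median of 1.17, and the same with slide as a block. Over all genes 4236 of 20342 were higher and 4313 lower without Thio 1. At least 2-fold higher were 28 of 49, against 7.91% of all genes. These groups share no array with the resident ones. Of the genes that rose, 35 did so in both kinds of cell, 77.8% of the resident list and 94.6% of the elicited list. The difference between both effects was tested as an interaction, the effect of IL-4c on elicited cells less its effect on resident cells. It was lower than 0 for 24 genes, higher for 2 (Gins3 and Cdc6) and not called for 23. Over all genes 19.8% were called lower and 12.8% higher, and the median was -0.83 against -0.05 over all genes. Without Thio 1 it was lower for 25 and higher for 3, with Cdc7 added, where 4282 of 20342 genes were lower and 3869 higher. With all arrays none was called higher by 2-fold or more, against 8.33% of all genes. The fitted effect was larger in resident cells for 44 of the 49. Among the 35 genes that rose in both, 15 rose by less in elicited cells by this test. The counts of 35, 44 and 15 were not taken over all genes. They therefore do not show what is particular to the set.

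**Figure D2:**
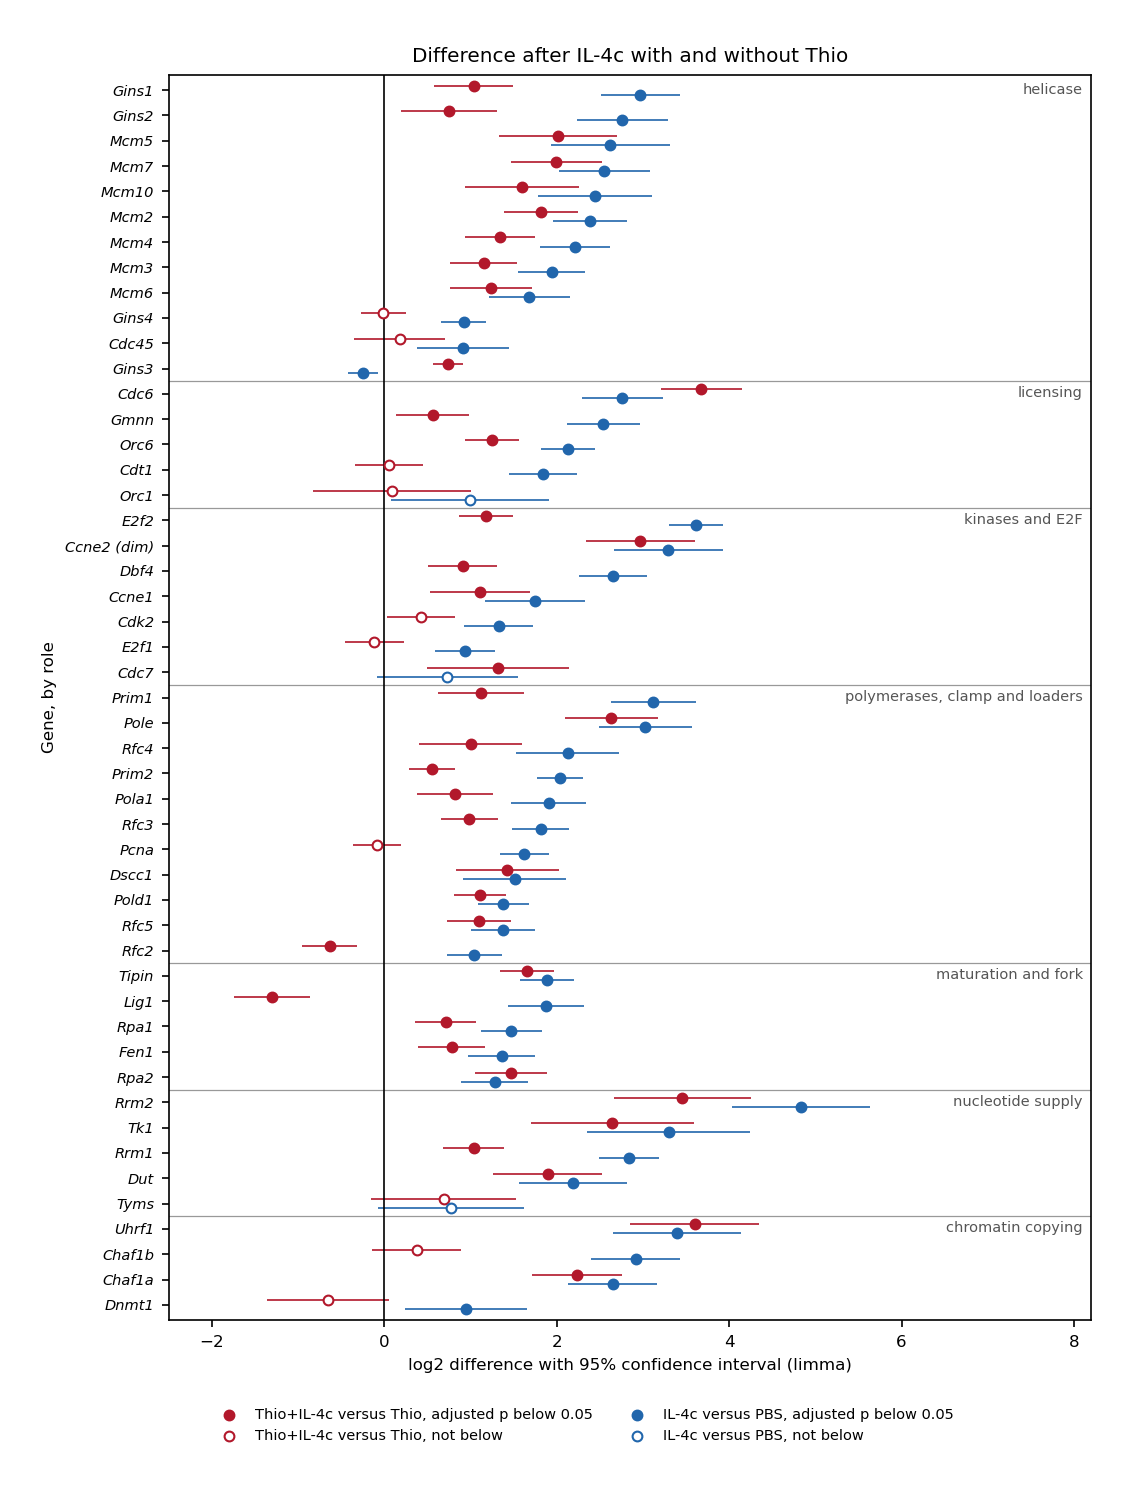
Log2 difference of each gene with its 95% confidence interval, for Thio+IL-4c versus Thio (red) and IL-4c versus PBS (blue); filled points had an adjusted p under 0.05. Blue points lie right of red ones in 44 rows, and only Lig1 and Rfc2 have a filled red point left of 0. The points of Ccne2 rest on groups below background.

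The helicase unwinds DNA at the fork, with the Mcm2 to Mcm7 ring as its motor and Cdc45 and GINS as its activators. In resident cells 11 of 12 of its genes rose, with a median of 2.30, and in elicited cells 10 rose and 2 were not called, with a median of 1.20. The 6 ring subunits rose by 1.68 (Mcm6) to 2.62 (Mcm5) in IL-4c versus PBS and by 1.16 (Mcm3) to 2.02 (Mcm5) in Thio+IL-4c versus Thio. Without Thio 1 the Thio mean of Mcm5 was 0.55 rather than 0.20, against 2.21 in Thio+IL-4c. That of Mcm7 was then -0.05, against 2.04, so Mcm7 rather than Mcm5 rose most. Mcm10, which helps to start the helicase, rose by 2.44 and 1.60.

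GINS is a complex of 4 subunits, and its genes did not move alike. Gins1 stood at 2.11, 1.66, 2.36 and 1.97 in IL-4c arrays, against -0.93, -1.16 and -0.74 in PBS arrays. That is a log2 difference of 2.97 ± 0.21 (SE), 7.82-fold, with an adjusted p of 7.06e-07 and no overlap of the groups. The elicited levels were 0.77, 0.02, 0.21 and 0.02 in Thio+IL-4c, against -0.61, -0.86 and -0.87 in Thio arrays, a difference of 1.04 ± 0.21 (adjusted p 0.00182), again with no overlap. The interaction was -1.93 ± 0.29 (adjusted p 0.000403). Gins2 behaved much like it, with 1.03, 1.14, 1.42 and 1.07 in IL-4c arrays, against -1.001, -2.22 and -1.56 in PBS arrays, and the difference was 2.76 ± 0.24 (adjusted p 6.37e-06). PBS 2 was the low array here, and all IL-4c arrays were well above all PBS arrays. In elicited cells Gins2 stood at -0.18, 0.06 and -0.14 on the 3 Thio+IL-4c arrays with a value (the spot of Thio+IL-4c 1 was left out), against -0.73, -0.79 and -0.99 in Thio arrays. The difference of 0.75 ± 0.25 had an adjusted p of 0.037 and was no longer called with any of Thio 2, Thio 3, Thio+IL-4c 2, Thio+IL-4c 3, Thio+IL-4c 4, PBS 3, IL-4c 2 or IL-4c 4 left out. Gins4 rose by 0.92 in resident cells and differed by -0.01 in elicited cells, where the 95% confidence interval was -0.27 to 0.25.

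Gins3 ran against the rest. Its levels were 4.47, 4.35, 4.42 and 4.41 in IL-4c arrays, against 4.67, 4.76 and 4.55 in PBS arrays. All IL-4c arrays lay below all PBS arrays, yet the difference was small, -0.25 ± 0.08 or 1.19-fold lower, with an adjusted p of 0.0313. It was not called without PBS 1, PBS 2, IL-4c 2, IL-4c 3 or IL-4c 4, and in the authors' deposited table it was 0.08 (adjusted p 0.62). Among elicited cells it measured 4.47, 4.45, 4.46 and 4.44 in Thio+IL-4c arrays, against 3.75, 3.74 and 3.67 in Thio arrays. The Thio arrays were the low group of all 4, and the difference of 0.74 ± 0.08 (adjusted p 1.62e-05) gave an interaction of 0.98 ± 0.11 (adjusted p 5.16e-05).

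Licensing genes load the ring onto origins and keep it from being loaded again within a cycle. In resident cells 4 of 5 rose (median 2.13), and in elicited cells 3 of 5 (median 0.56). Cdc6, a loader of the ring that is destroyed outside its window, stood at 0.42, 0.55, 0.93 and 0.52 in IL-4c arrays, against -2.12, -2.45 and -1.90 in PBS arrays. The rise was 2.76 ± 0.21, 6.79-fold (adjusted p 1.48e-06). Its elicited levels were -0.24, -1.19, -0.86 and -0.82 in Thio+IL-4c, against -4.47, -4.32 and -4.57 in Thio arrays, and rose by 3.68 ± 0.21, 12.8-fold (adjusted p 1.42e-07), the largest rise of the 49 there. None of these groups overlapped, and the Thio arrays were the lowest of all. Its interaction of 0.91 ± 0.30 had an adjusted p of 0.0371, which passed 0.05 with PBS 1, PBS 3, IL-4c 1, IL-4c 2, IL-4c 4, Thio 3, Thio+IL-4c 3 or Thio+IL-4c 4 left out. In the authors' deposited table this interaction was 0.15 (adjusted p 0.69). The second probe of Cdc6 gave 2.78 and 3.53 for the rises.

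Gmnn encodes geminin, which blocks Cdt1 and so prevents a second loading. Its levels were 2.14, 2.06, 2.29 and 2.05 in IL-4c arrays, against -0.55, -0.67 and -0.01 in PBS arrays. With no overlap, it rose by 2.54 ± 0.19, 5.83-fold (adjusted p 1.30e-06). With broth present it stood at 0.97, 0.17, 0.46 and 0.56 in Thio+IL-4c, against -0.16, 0.10 and -0.01 in Thio arrays. All Thio+IL-4c arrays were above all Thio arrays, but the difference of 0.56 ± 0.19 (adjusted p 0.0372) was not called without Thio 1 (0.49, adjusted p 0.097), nor without IL-4c 1, Thio 3, Thio+IL-4c 1, Thio+IL-4c 3 or Thio+IL-4c 4. Cdt1, the target of geminin, rose by 1.84 in resident cells and differed by 0.06 in elicited cells (95% confidence interval -0.33 to 0.46).

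Orc1, the subunit of the origin recognition complex whose amount changes over the cycle, depended on a single array. It stood at -1.76, -2.03, -1.49 and -1.89 in IL-4c arrays, against -3.02, -2.69 and -2.63 in PBS arrays. Although these groups did not overlap, the difference of 0.99 ± 0.42 had an adjusted p of 0.0989, in a fit where all groups share an estimate of the spread. After thioglycollate it stood at -2.96, -3.47, -3.27 and -3.20 in Thio+IL-4c, against -1.92, -3.93 and -4.11 in Thio arrays. Thio 1 lay above every Thio+IL-4c array and the other Thio arrays lay below them all, and the difference was 0.09 ± 0.42 (adjusted p 0.867). Without Thio 1 the difference was 0.99 (adjusted p 0.00038) in resident cells and 0.79 (adjusted p 0.0040) in elicited cells, and with Thio 2 or Thio 3 left out the difference in elicited cells was -0.21 or -0.30, neither of them called.

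Cyclin E with Cdk2 and Dbf4 with Cdc7 fire the loaded origins, and E2f1 and E2f2 drive the transcription of S phase genes. In resident cells 6 of 7 rose (median 1.75), and in elicited cells 5 of 7 (median 1.11). E2f2 stood at 3.05, 3.24, 3.46 and 3.25 in IL-4c arrays, against -0.20, -0.66 and -0.25 in PBS arrays, a rise of 3.62 ± 0.14 or 12.3-fold (adjusted p 1.12e-08). The elicited levels were 1.54, 1.30, 1.17 and 1.23 in Thio+IL-4c, against 0.21, 0.14 and 0.04 in Thio arrays, a rise of 1.18 ± 0.14 or 2.27-fold (adjusted p 4.00e-05). The groups were far apart in both cases, and the interaction of -2.43 ± 0.20 (adjusted p 5.30e-06) was the third in size among the 49. E2f1, in contrast, rose by 0.93 in resident cells and differed by -0.11 in elicited cells (95% confidence interval -0.46 to 0.23).

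Ccne2, a cyclin E, was well above background on all 4 IL-4c and all 4 Thio+IL-4c arrays, and on none of the PBS or Thio arrays. Its levels were -4.63, -4.56, -4.24 and -4.62 in IL-4c arrays, against -7.66, -8.19 and -7.57 in PBS arrays. Set against the lowest signal that was well above background, this is at least 1.96-fold higher in IL-4c. The bound itself was not tested, and the adjusted p of 4.03e-06 is that of the measured levels, with PBS below background. The authors' deposited table gave a log2 difference of 0.20 (adjusted p 0.40). Among elicited cells it measured -4.78, -5.96, -5.30 and -5.18 in Thio+IL-4c, against -8.37, -7.73 and -8.72 in Thio arrays. That is at least 1.60-fold higher, and the adjusted p of 7.15e-06 is again that of the measured levels. The measured levels of the groups given IL-4c did not overlap those of their counterparts, which were below background. Ccne1, the other cyclin E, rose by 1.75 and 1.11. Its Thio mean was 0.18, or -0.24 without Thio 1, against 1.29 in Thio+IL-4c.

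Cdc7, the kinase that Dbf4 activates, stood at -2.71, -2.70, -2.87 and -2.70 in IL-4c arrays, against -3.56, -3.51 and -3.35 in PBS arrays. Without overlap, the difference of 0.73 ± 0.38 had an adjusted p of 0.180, and of 0.010 without Thio 1. Its elicited levels were -3.58, -2.69, -2.93 and -2.82 in Thio+IL-4c, against -3.15, -5.14 and -4.67 in Thio arrays. Thio 1 lay inside the range of the Thio+IL-4c arrays, and the difference of 1.32 ± 0.38 (adjusted p 0.0153) was 1.90 without it (adjusted p 4.4e-05) and was not called without Thio 2 or without Thio 3 (0.91 and 1.14). The second Cdc7 probe gave 0.04 in resident and 0.84 in elicited cells. Dbf4 rose by 2.65 and 0.91.

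The polymerase group holds the primase that starts each strand, the replicative polymerases, the Pcna clamp and the loaders that open it. All 11 rose in resident cells (median 1.81, from 1.04 to 3.12), and in elicited cells 9 rose, 1 fell and 1 was not called (median 1.002). Prim1, the catalytic subunit of primase, stood at 2.82, 2.71, 3.09 and 2.85 in IL-4c arrays, against 0.07, -0.77 and -0.07 in PBS arrays, a rise of 3.12 ± 0.23 or 8.71-fold (adjusted p 9.35e-07). In elicited cells the levels were 1.63, 0.73, 1.06 and 1.0998 in Thio+IL-4c, against 0.09, 0.00 and -0.07 in Thio arrays, a rise of 1.12 ± 0.23 (adjusted p 0.00189). Neither pair overlapped, and the interaction was -2.00 ± 0.32 (adjusted p 0.000567). Pole, the catalytic subunit of the leading strand polymerase, stood at 2.34, 2.27, 2.37 and 2.38 in IL-4c arrays, against -0.30, -1.31 and -0.45 in PBS arrays, a rise of 3.03 ± 0.25 or 8.17-fold (adjusted p 2.28e-06). With broth present it stood at 0.97, 0.02, 0.41 and 0.32 in Thio+IL-4c, against -2.20, -2.10 and -2.30 in Thio arrays, a rise of 2.63 ± 0.25 (adjusted p 5.24e-06). Here both effects were large, and the interaction of -0.40 ± 0.35 was not called (adjusted p 0.401). A second Pole probe, well above background on only 3 arrays, gave 1.51 and 0.53.

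Pcna, the sliding clamp, showed a rise in resident cells alone. It stood at 5.06, 5.16, 5.50 and 5.41 in IL-4c arrays, against 3.63, 3.64 and 3.70 in PBS arrays, a rise of 1.63 ± 0.13 or 3.09-fold (adjusted p 1.74e-06). After thioglycollate it stood at 4.79, 4.55, 4.68 and 4.44 in Thio+IL-4c, against 4.81, 4.70 and 4.58 in Thio arrays. The elicited groups overlapped, with a difference of -0.08 (95% confidence interval -0.36 to 0.20), and the interaction was -1.71 ± 0.18 (adjusted p 2.97e-05). Rfc2, a subunit of the clamp loader, had the smallest rise of the group in resident cells. Its levels were 2.10, 2.05, 2.30 and 2.18 in IL-4c arrays, against 1.09, 1.11 and 1.13 in PBS arrays, a rise of 1.04 ± 0.14 (adjusted p 0.000133). In elicited cells it fell, with 1.22, 0.87, 1.13 and 0.96 in Thio+IL-4c, against 2.04, 1.54 and 1.45 in Thio arrays. The fall of -0.63 ± 0.14 (adjusted p 0.00404) was -0.45 (adjusted p 0.0062) without Thio 1, the highest array, and all Thio+IL-4c arrays lay below all Thio arrays. Of its partners in the loader, Rfc3, Rfc4 and Rfc5 rose by 0.98, 1.002 and 1.09 there. Rfc1, of a related list, fell, with means of 1.37 in Thio+IL-4c and 1.91 in Thio arrays. For Rfc4 the Thio mean was 0.94, or 1.38 without Thio 1, against 1.94 in Thio+IL-4c. Dscc1, part of an alternative clamp loader, had an interaction near 0. It stood at -0.15, -0.33, 0.01 and -0.26 in IL-4c arrays, against -1.69, -1.81 and -1.58 in PBS arrays, a rise of 1.51 ± 0.27 (adjusted p 0.000976). The elicited levels were -1.20, -1.99, -1.78 and -1.75 in Thio+IL-4c, against -2.31, -3.49 and -3.51 in Thio arrays, a rise of 1.43 ± 0.27 (adjusted p 0.00127). The groups did not overlap in either kind of cell, and the interaction was -0.09 (95% confidence interval -0.93 to 0.76), or 0.31 without Thio 1.

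Maturation joins the lagging strand pieces and fork proteins guard single strands. In resident cells all 5 of these genes rose (median 1.47), and in elicited cells 4 rose and 1 fell (median 0.78). Tipin, which stabilises the fork with Timeless, stood at 2.99, 2.93, 3.19 and 2.94 in IL-4c arrays, against 1.17, 1.05 and 1.14 in PBS arrays, a rise of 1.89 ± 0.14 (adjusted p 1.295e-06). Among elicited cells it measured 2.07, 1.62, 1.53 and 1.92 in Thio+IL-4c, against 0.32, 0.12 and -0.05 in Thio arrays, a rise of 1.65 ± 0.14 (adjusted p 2.91e-06). Every array with IL-4c was above every array without it in both kinds of cell. Rpa2, of the single strand binding protein, rose least of this group in resident cells, with 0.46, 0.50, 0.90 and 0.49 in IL-4c arrays, against -0.52, -0.93 and -0.62 in PBS arrays. That rise was 1.28 ± 0.18 (adjusted p 0.000205). Its elicited levels were 0.01, -0.49 and -0.57 on the 3 Thio+IL-4c arrays with a value (the spot of Thio+IL-4c 2 was left out), against -1.70, -1.76 and -2.01 in Thio arrays, a rise of 1.47 ± 0.19 (adjusted p 0.000102). No groups overlapped, and the interaction was 0.19 (95% confidence interval -0.38 to 0.76).

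Lig1, the ligase that seals Okazaki fragments, changed in opposite directions. It stood at 3.54, 3.47, 3.86 and 3.70 in IL-4c arrays, against 1.86, 1.45 and 1.98 in PBS arrays, a rise of 1.88 ± 0.20 or 3.68-fold (adjusted p 1.87e-05). With broth present it stood at 2.61, 1.84, 2.29 and 2.09 in Thio+IL-4c, against 3.26, 3.78 and 3.49 in Thio arrays, 2.465-fold lower (log2 difference -1.30 ± 0.20, adjusted p 0.000267). The Thio arrays reached the levels of the IL-4c arrays, and both elicited groups were separate. The interaction of -3.18 ± 0.28 (adjusted p 8.64e-06) was the largest in size among the 49, and without Thio 1 it was -3.31.

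The nucleotide group makes and guards the precursors of DNA. In resident cells 4 of 5 rose (median 2.84), and in elicited cells 4 of 5 (median 1.90). Rrm2, the subunit of ribonucleotide reductase that limits its activity to S phase, stood at 4.56, 4.49, 4.70 and 4.59 in IL-4c arrays, against 0.21, -1.19 and 0.23 in PBS arrays. The rise of 4.83 ± 0.36, 28.5-fold (adjusted p 1.20e-06), was the largest of the 49, and PBS 2 was the low array of its group. After thioglycollate it stood at 2.97, 2.02, 2.09 and 2.55 in Thio+IL-4c, against -1.43, -0.44 and -1.28 in Thio arrays, a rise of 3.46 ± 0.36 or 11.0-fold (adjusted p 1.33e-05). The interaction of -1.37 ± 0.51 was not called (adjusted p 0.0606), but was -1.56 without Thio 1 (adjusted p 0.041). It was also called without PBS 1, PBS 3 or Thio+IL-4c 1. Tk1, the thymidine kinase of the cytosol, stood at 3.10, 3.06, 3.32 and 3.19 in IL-4c arrays, against 0.43, -1.004 and 0.19 in PBS arrays, a rise of 3.30 ± 0.43 or 9.84-fold (adjusted p 9.05e-05). The elicited levels were 1.65, 1.02, 1.21 and 1.44 in Thio+IL-4c, against -2.17, -0.17 and -1.59 in Thio arrays, a rise of 2.64 ± 0.43 (adjusted p 0.000408), or 2.21 without Thio 1. The Thio arrays were spread widely, and all lay under the Thio+IL-4c arrays.

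Tyms, thymidylate synthase, was far lower on Thio 1 than on the other Thio arrays. It stood at -1.48, -1.99, -1.54 and -1.46 in IL-4c arrays, against -2.46, -2.43 and -2.29 in PBS arrays, a difference of 0.77 ± 0.39 (adjusted p 0.166, or 0.00075 without Thio 1). Among elicited cells it measured 0.15, 0.14, 0.39 and 0.02 in Thio+IL-4c, against -1.82, 0.15 and 0.12 in Thio arrays. Thio 1, the only Thio array on slide 1, lay among the resident arrays, and all 6 arrays of slide 2 lay between 0.02 and 0.39. The difference was 0.69 ± 0.39 (adjusted p 0.174), and 0.04 (adjusted p 0.89) without Thio 1. The part of the slide in the level of Tyms cannot be told apart from that of the broth on the arrays other than Thio 1. For Thio 1 itself, the slide cannot be told apart from a trait of that sample.

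Uhrf1, Dnmt1 and the CAF-1 subunits Chaf1a and Chaf1b carry DNA methylation and histones over to the new strands. All 4 rose in resident cells (median 2.78), and 2 of 4 in elicited cells (median 1.31). Uhrf1, which recognises hemimethylated DNA, stood at 2.65, 2.61, 2.996 and 2.64 in IL-4c arrays, against -0.41, -1.57 and -0.05 in PBS arrays, a rise of 3.40 ± 0.34 or 10.5-fold (adjusted p 1.13e-05). Its elicited levels were 1.99, 0.96, 0.92 and 1.24 in Thio+IL-4c, against -2.47, -2.08 and -2.43 in Thio arrays, a rise of 3.60 ± 0.34 or 12.1-fold (adjusted p 5.73e-06). Both pairs of groups were well apart, and the interaction was 0.20 (95% confidence interval -0.85 to 1.26). Its dimmer second probe rose by 1.51 and 0.53. Chaf1b, by contrast, was already high in Thio arrays. It stood at 2.99, 2.70, 3.23 and 2.89 in IL-4c arrays, against 0.24, -0.40 and 0.26 in PBS arrays, a rise of 2.92 ± 0.24 or 7.56-fold (adjusted p 2.16e-06). With broth present it stood at 2.21, 2.03, 1.46 and 2.14 in Thio+IL-4c, against 1.20, 1.83 and 1.72 in Thio arrays. These overlapped, and the difference of 0.37 (95% confidence interval -0.14 to 0.89) was not called, and the interaction was -2.54 ± 0.33 (adjusted p 0.000138). The dimmer second probe of Chaf1b gave 3.35 in resident and 0.67 in elicited cells. Chaf1a rose by 2.65 in resident cells and by 2.24 in elicited cells, where the brighter Chaf1b probe was not called.

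Dnmt1, the maintenance methyltransferase, rose least of the 4 in resident cells. It stood at 0.51, 0.80, 1.02 and 0.84 in IL-4c arrays, against 0.24, 0.26 and -0.98 in PBS arrays, a rise of 0.95 ± 0.32 (adjusted p 0.0421). PBS 3 was far below the other PBS arrays, and without it the difference was 0.54 (adjusted p 0.20). It was also not called without IL-4c 2, IL-4c 3, IL-4c 4, Thio+IL-4c 2 or Thio+IL-4c 3. After thioglycollate it stood at -0.27, -0.73, -0.98 and -1.07 in Thio+IL-4c, against 0.43, -0.40 and -0.36 in Thio arrays, a difference of -0.65 (95% confidence interval -1.36 to 0.06; adjusted p 0.132). Without Thio 1 that difference was -0.38.

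**Figure D3:**
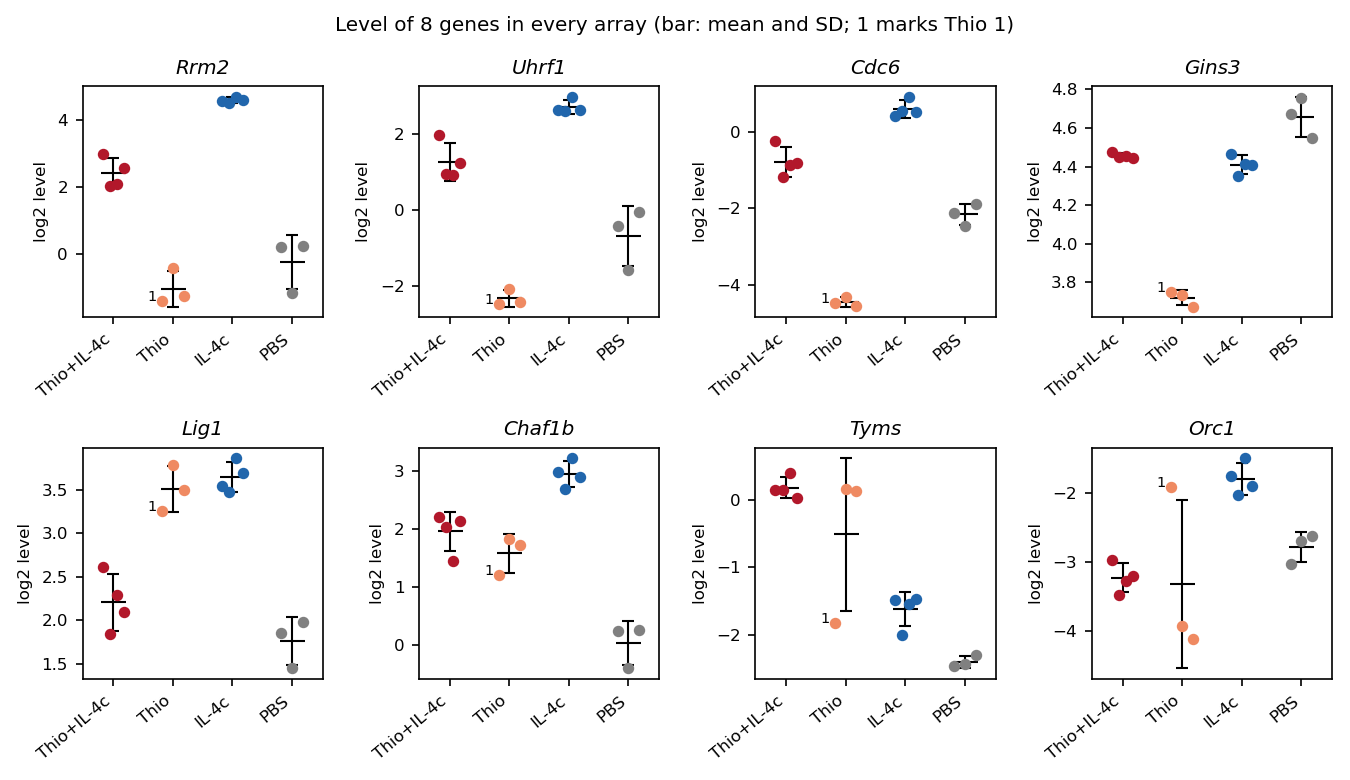
Log2 level of 8 genes in every array, by group, with the mean and SD of each group as a bar and Thio 1 marked. Rrm2, Uhrf1 and Cdc6 are low in both groups without IL-4c, Lig1 and Chaf1b are high in Thio, and in Tyms and Orc1 Thio 1 lies apart from the other Thio arrays.

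With thioglycollate alone, members were called in both directions. In Thio versus PBS, 9 of 49 genes were higher, 16 lower and 24 not called, with a median of -0.41 against -0.09 over all genes. Over all genes 20.2% were called higher and 24.3% lower, so the share of members called higher is near that of all genes. In 9 genes every Thio array lay above every PBS array, against 19.1% of all genes, and in 17 every Thio array lay below, against 23.4%. Without Thio 1 it was 9 higher and 22 lower, with a median of -0.42. In that fit 6106 of 20342 genes were higher and 7770 lower, with a median of -0.12, so calls rose over all genes as well. These groups then share no slide, and the broth and the slide cannot be told apart. With slide as a block, which rests on Thio 1, the median was -0.10, against 0.04 over all genes. The largest fall was that of Cdc6 (-2.29 ± 0.23, adjusted p 9.75e-06), followed by Uhrf1 (-1.65 ± 0.36, adjusted p 0.00376), Pole (-1.51 ± 0.26, adjusted p 0.000764), Mcm7 (-1.50) and Dscc1 (-1.41). The second probe of Uhrf1 went the other way, at 1.38, and with the mean of both probes the difference was -0.14 (adjusted p 0.79). The second Pole probe gave 0.05. Higher in Thio were Tyms (1.88 ± 0.41, adjusted p 0.00361), Lig1 (1.75 ± 0.21, adjusted p 5.41e-05), Chaf1b (1.55 ± 0.25, adjusted p 0.00047), Pcna (1.04 ± 0.14, adjusted p 8.98e-05), Gins2 (0.76), Cdt1 (0.75), E2f1 (0.59), Rfc2 (0.56) and E2f2 (0.50). The Gins2 rise was not called without PBS 2, PBS 3, Thio 1, Thio 2 or Thio 3, nor the E2f2 rise without PBS 2 or Thio 2. Several calls depended on Thio 1 and the slide. The difference of Tyms was 2.53 (adjusted p 3.725e-07) without Thio 1 and 0.58 (adjusted p 0.057) with slide as a block. With that block Dscc1 was also not called (-0.62, adjusted p 0.086), nor were Gins2 (0.87, adjusted p 0.11), E2f1 (0.58, adjusted p 0.096) and E2f2 (0.58, adjusted p 0.064), and Rfc2 stood at 0.93 (adjusted p 0.00062). Of these 9 genes, Lig1 and Rfc2 fell, Tyms, Chaf1b, Pcna, Cdt1 and E2f1 were not called, and Gins2 and E2f2 rose in Thio+IL-4c versus Thio. Both comparisons use the Thio arrays.

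Set against IL-4c alone, the combination held lower levels of nearly the whole set. In Thio+IL-4c versus IL-4c, 45 of 49 genes were lower, 1 higher (Tyms) and 3 not called (Gins3, Cdc7 and Rfc4), with a median of -1.25 or 0.419 of the IL-4c level. Over all genes 70.0% were called, 42.1% lower and 27.9% higher, with a median of -0.21. Only in 1 of 47 genes (Tyms) did every Thio+IL-4c array lie above every IL-4c array, against 29.9% of all genes. The largest falls were those of Rrm1 and Rrm2 (-2.17 each), Mcm7 (-2.05), Mcm10 (-1.97), E2f2 (-1.94) and Pole (-1.91). Tyms was higher by 1.79 ± 0.36 (adjusted p 0.000906), but with slide as a block the difference was -0.16 (adjusted p 0.70). For Uhrf1 the brighter probe gave -1.45 and the dimmer one 0.41. For Rfc4 the brighter probe gave -0.52 and the dimmer one -1.20. The groups lie on different slides, and only Thio 1 links them. With slide as a block 27 genes were lower and 1 higher (Cdc7, 1.49, adjusted p 0.011), with a median of -0.97. In that fit 2941 of 20342 genes were lower and 2496 higher, with a median of 0.03. This comparison shares its arrays with those above.

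In each group the genes of the set shared a high or a low array. Of 47 genes with a value on every array, IL-4c 3 was the highest of its group in 41, against 24.9% of all genes, and Thio+IL-4c 1 the highest of its group in 43, against 28.9%. PBS 2 was the lowest of its group in 36, against 27.3% of all genes, and Thio+IL-4c 2 the lowest in 33, against 19.5%. In the Thio group Thio 3 was lowest in 31 genes (against 31.1% of all genes) and highest in 0 (21.6%). The highest array was split there, with Thio 1 highest in 25 genes (58.3%) and Thio 2 in 22 (20.1%). Thio 1 was also lowest in 13 (34.4%). The median of the 49 genes relative to the PBS mean was 1.16, 0.68, 0.78 and 0.82 on the Thio+IL-4c arrays, -0.10, -0.25 and -0.51 on the Thio arrays, 1.91, 1.81, 2.11 and 1.97 on the IL-4c arrays, and 0.05, -0.19 and 0.13 on the PBS arrays. Both groups given IL-4c lay apart from each other and above the rest on this median. Thio 1 lay at least 1 log2 unit above both other Thio arrays in 5 of 49 genes (Orc1, Cdc7, Ccne1, Dscc1 and Cdc45), against 16.3% of all genes, and at least as far below both in 3 (Tyms, Rfc4 and Dut), against 22.6%.

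**Figure D4:**
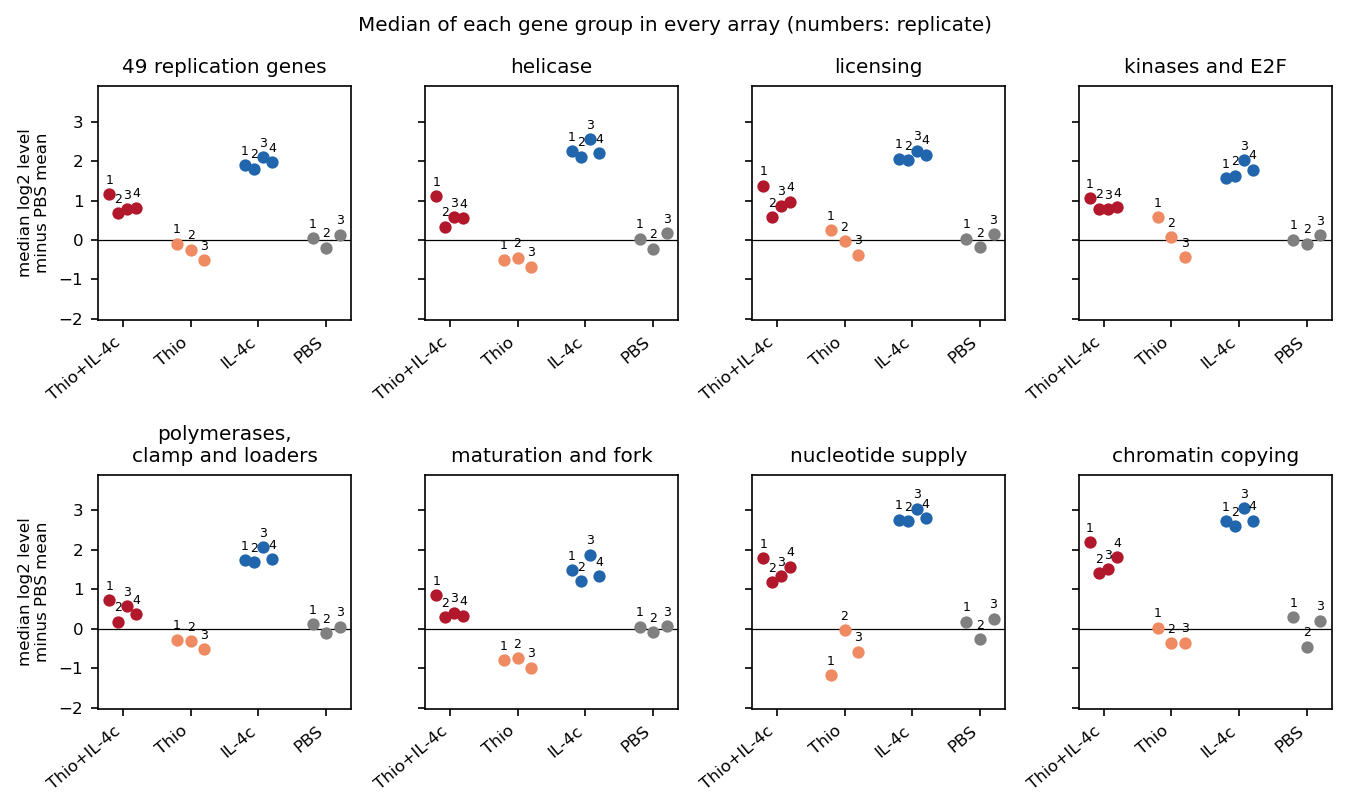
Median log2 level of the 49 genes and of each role group on every array, relative to the PBS mean of each gene, with replicate numbers. In each panel the 4 IL-4c arrays lie above all others, and the Thio+IL-4c arrays lie between them and the Thio arrays.

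Genes around the replication set were described from 6 further lists. As above, 16.8% of all genes were called higher and 15.4% lower in IL-4c versus PBS, and 16.3% and 23.0% in Thio+IL-4c versus Thio, and the share that fell was near or under these in each of the 6 lists. Of 31 measured genes of other replisome and fork proteins, 22 rose and none fell in IL-4c versus PBS (median 1.22), led by Ticrr (4.02, adjusted p 3.03e-06), a factor that brings Cdc45 to origins, the checkpoint mediator Clspn (3.47, adjusted p 1.02e-06) and the chromatin remodeller Hells (3.36, adjusted p 0.00115). For Thio+IL-4c versus Thio 18 rose, among them Clspn (3.03), Ticrr (2.76) and the polymerase subunit Pold2 (2.08), and 3 fell, namely Pold3 (-1.06), Orc5 (-0.85) and Rfc1 (-0.54). Of 14 genes of mitosis, which follows S phase, all rose in IL-4c versus PBS (median 3.49), with the spindle checkpoint kinase Bub1 at 4.24 (adjusted p 2.50e-07) and the ubiquitin enzyme Ube2c at 3.94 (adjusted p 3.09e-07). Under Thio+IL-4c versus Thio 13 of 14 rose (median 2.46), led by Birc5 (3.15), Mki67 (3.08) and Ube2c (2.99). Their interaction was called for 2, Kif11 (-2.39) and Bub1 (-1.45), both lower, against 19.8% of all genes. Without Thio 1 it was called for 7 lower and 1 higher, where 4282 of 20342 genes were lower and 3869 higher. The mitotic kinase Aurkb was the gene not called in elicited cells (1.94, adjusted p 0.0831).

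Regulators of entry into S phase were mixed. Of 8 measured G1 drivers, 4 rose and 1 fell in IL-4c versus PBS and 7 rose in Thio+IL-4c versus Thio, or 5 without Thio 1. Ccna2, the cyclin of S phase, rose by 4.06 in resident cells (adjusted p 1.81e-05) and by 1.20 in elicited cells (adjusted p 0.0446, or 0.67 and 0.182 without Thio 1), with an interaction of -2.85 (adjusted p 0.00367). The 3 D cyclins, which open G1, all had a positive interaction. Ccnd2 fell in resident cells (-2.57, adjusted p 0.000488) and rose in elicited cells (3.69, adjusted p 2.54e-05), with an interaction of 6.25 (adjusted p 1.38e-05), and the interaction was 3.25 for Ccnd1 (adjusted p 0.000135) and 1.47 for Ccnd3 (adjusted p 3.50e-05). Of 18 CDK inhibitors, pocket proteins and other E2F factors, 8 rose and 3 fell in IL-4c versus PBS, and 6 rose and 4 fell in Thio+IL-4c versus Thio. The CDK inhibitor Cdkn1c fell in both (-2.87, adjusted p 5.13e-05; -5.64, adjusted p 2.33e-07). Cdkn2b, another inhibitor, fell in resident cells (-2.58, adjusted p 8.23e-05) and rose in elicited cells (2.45, adjusted p 9.98e-05), with an interaction of 5.03 (adjusted p 1.24e-05). Of the other CDK inhibitors of the list, Cdkn1a, Cdkn2c and Cdkn2d rose at least 2-fold in resident cells. Their mean levels were 2.35, 1.23 and 3.72 in IL-4c arrays, against 0.93, 0.16 and 2.36 in PBS arrays. Cdkn2a had a mean of 0.17 in IL-4c against -0.07 in PBS arrays, and Cdkn1b 1.04 against 1.53. The pocket protein Rbl1 rose by 2.41 in resident cells (adjusted p 2.77e-07), with an interaction of -2.11 (adjusted p 1.89e-05).

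Checkpoint and precursor genes moved less uniformly. Of 9 checkpoint genes 4 rose in IL-4c versus PBS, with the kinases Wee1 (2.49, adjusted p 5.38e-07) and Chek2 (1.65, adjusted p 0.000137) among them, and 1 rose and 2 fell in Thio+IL-4c versus Thio, where Chek2 was among the falls (-0.71, adjusted p 0.0269, or -0.42 and 0.0899 without Thio 1). The elicited counts of this list do not exceed the shares of all genes. Of 18 other enzymes of nucleotide and one-carbon metabolism 9 rose and 2 fell in IL-4c versus PBS, and 9 rose and 1 fell in Thio+IL-4c versus Thio. Shmt2, the mitochondrial serine hydroxymethyltransferase, rose by 2.41 and 3.05 (adjusted p 1.03e-07 and 1.43e-08), and Tk2, the thymidine kinase of mitochondria, fell by 1.17 and 1.49 on the log2 scale.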

How the data were processed

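RNA of 14 sorted samples was measured on one-colour (Cy3) arrays. The authors deposited 1 scanner table per array with spot intensity on a linear scale, extracted with Agilent Feature Extraction 11.0.1.1 per the file headers, while the submitters' processing notes give version 11.5 and limma. The processed signal is an intensity background-subtracted and detrended within the array by that software, per the file headers. Its other columns used, flags for controls, outliers and signal well above background, are also as deposited. The authors also deposited a log2 table of the same arrays with a median of 9.2341 on each, whose direction follows from its correlation of 0.988 to 0.994, array by array, with log2 median brightness. How its background was corrected is not stated by the labels or headers.

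There were 62976 spots per array. The 3671 control spots and 113 to 165 outlier spots per array were left out. Probes were named through unversioned accessions in a RefSeq gene table of GRCm38.p6: of 55681 probes, 27235 had 1 symbol and 28446 none. Values were log2 of the processed signal minus that of the array's 75th percentile. Spots of a probe were averaged, probes well above background on at least 3 arrays were kept (79.1% to 95.6% of probes were so per array), and a gene was its brightest probe.

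All arrays entered 1 limma 3.58.1 fit (lmFit, contrasts.fit and eBayes under R 4.3.3) of 20342 genes, with a mean for every group and 5 comparisons. Adjusted p-values are limma's with Benjamini-Hochberg adjustment over all genes, two-sided, called under 0.05. The fit was tested on simulated data. Errors are the SE of the fit and intervals cover 95%. A gene not well above background on any array of a group has a bound there: the bright group's mean against the mean, per array, of the higher of the lowest signal well above background and the dim probe's own, written as at least N-fold. The fit drops the outlier spots of Gins2 and Rpa2 on 1 array each.

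Members, role groups, 6 related lists, 9 marker lists and tests were chosen with earlier results of these data known. Per role group, array values are given for the members with the largest and smallest change under IL-4c in resident cells, those not called there, those with the largest and smallest interaction, those called against the majority, and those whose probes disagree in sign. From each related list up to 3 of the largest called rises and 3 of the largest called falls per comparison could be named. The remaining CDK inhibitors were added with their mean levels. Alternatives were other scalings and backgrounds, the authors' table, filters, probe averaging, trended spread, array weights, slide and replicate blocks, and leaving out each array. Normexp used the median signal, since no mean signal column was at hand.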

Additional observations from a re-analysis of the deposited data

Results flagged for a closer look

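Of 96 groups of 4 arrays looked at, 9 held an array set apart from the other 3 by a gap that is a large share of the group's range. Chance gives about 1 in 20 for independent groups. These groups are genes on the same arrays and are not independent, so the count of 9 cannot be read against that rate. That share was 0.869 for Thio+IL-4c 1 in Rrm1, 0.843 for Thio+IL-4c 1 in Ccne1 and 0.903 for Thio+IL-4c 2 in Dbf4. In IL-4c arrays it was 0.855 for IL-4c 2 in Tyms, and for IL-4c 3 it was 0.905 in Cdt1, 0.922 in Rpa2, 0.912 in Uhrf1, 0.831 in Ccne2 and 0.931 in Cdc7.

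The IL-4c effect differed between elicited and resident cells, by the interaction test (elicited minus resident, log2; limma adjusted p under 0.05), for 26 genes. It was higher in elicited cells for Gins3 (0.98) and Cdc6 (0.91). Among helicase genes it was lower for Gins1 (-1.93), Gins2 (-2.01), Gins4 (-0.94), Mcm3 (-0.79) and Mcm4 (-0.87), and among licensing genes for Cdt1 (-1.78), Gmnn (-1.98) and Orc6 (-0.88). Among kinases and E2F factors it was lower for E2f1 (-1.05), E2f2 (-2.43), Cdk2 (-0.90) and Dbf4 (-1.74). The polymerase group gave Pcna (-1.71), Pola1 (-1.08), Prim1 (-2.00), Prim2 (-1.48), Rfc2 (-1.68), Rfc3 (-0.83) and Rfc4 (-1.13). The remaining ones were Lig1 (-3.18), Rpa1 (-0.76), Rrm1 (-1.80), Chaf1b (-2.54) and Dnmt1 (-1.60).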

How the results depend on the processing

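Of 2745 recomputed values (23 named genes, 5 comparisons, 24 settings), 2590 kept direction and call, 76 lost and 50 gained a call, and 29 changed sign. In IL-4c versus PBS the median of the 49 genes was 1.76 with normexp and quantile normalization and 2.16 in the authors' table, and 0 genes were lower in the authors' table and with replicate number as a block. With 1 array left out, 44 to 48 genes were higher and 0 to 1 lower, with a median of 1.85 to 2.03. In Thio versus PBS the median was -0.10 with slide as a block, and with 1 array left out 6 to 10 were higher and 12 to 22 lower (-0.49 to -0.27). In Thio+IL-4c versus Thio the median was 0.84 in the authors' table, and with 1 array left out 34 to 39 were higher and 2 lower (0.96 to 1.17). In Thio+IL-4c versus IL-4c 2 genes were higher with quantile normalization, with or without normexp, the median was -1.51 in the authors' table and -0.97 with slide as a block, where 27 were lower, and with 1 array left out 43 to 46 were lower and 1 higher (-1.34 to -1.17). For the interaction 1 gene was higher with normexp and quantile normalization, in the authors' table, with the mean of probes and with the replicate block, 38 were lower with a median of -1.18 in the authors' table, and with 1 array left out 1 to 3 were higher and 20 to 26 lower (-0.92 to -0.71). The authors' table also moves the median of all genes, to -0.43 against -0.21 in Thio+IL-4c versus IL-4c and to -0.20 against -0.05 for the interaction. The causes were not tested.

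Sign changes: in IL-4c versus PBS, Gins3 (0.0784, authors' table). In Thio versus PBS, Dnmt1 (-0.0251 normexp and quantile, -0.31 array weights, and -0.36 to 0.25 with 1 array left out), and with slide as a block Orc1 (0.86) and Cdc7 (0.32). For Thio+IL-4c versus Thio, Orc1 (-0.0878 normexp and quantile, -0.0042 authors' table, -0.30 to 0.79 with 1 array left out). For Thio+IL-4c versus IL-4c, Gins3 (-0.30, authors' table), and with slide as a block Orc1 (0.67), Cdc7 (1.49) and Tyms (-0.16). For the interaction, Tipin (0.0238 normexp and quantile), Ccne2 (0.33), Rpa2 (-0.22) and Uhrf1 (-0.29) in the authors' table, Uhrf1 also with the mean of probes (-0.38) and array weights (-0.19), Dscc1 with array weights (0.12) and slide as a block (0.31), and with 1 array left out Uhrf1 (-0.11 to 0.65), Dscc1 (-0.29 to 0.31) and Tyms (-0.74 to 0.25).

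Replicate numbers did not pair the arrays: same-numbered arrays correlated at -0.446 to 0.368 in their deviations from group means. With the replicate block these named genes lost their call (adjusted p): Gins3 (-0.25, 0.0862) and Dnmt1 (0.0502) in IL-4c versus PBS, Gins2 (0.0594) in Thio versus PBS, Gins2 (0.0638), Gmnn (0.0646) and Cdc7 (0.0529) in Thio+IL-4c versus Thio, and the Cdc6 interaction (0.0623). Genes below background have bounds only.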
